A study of Sus scrofa with 6 samples.

Results

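Expression of 10 genes linked to the core and naive states of pluripotency was followed in pig cells before and after reprogramming. The genes were TERT, TERF1, ZSCAN10, ESRRB, PRDM14, TCL1A, TBX3, DPPA5, GDF3 and FGF4, chosen by symbol, and all 10 had a row among the 25322 gene IDs of the deposited table. The choice was made with earlier results of these data known. RNA was sequenced from cells of the Small Xiang Pig in 3 groups of 2 libraries. The groups were Rex1-negative pig induced pluripotent stem cells (piPSCs) at passage 10 (P10), Rex1-positive piPSCs at passage 5 (P5), and the fibroblasts that served as their progenitors, also at passage 5 (PEF). The sources used here name neither the reprogramming factors nor the culture medium, nor the number of piPSC lines. Passage and Rex1 state differ together between P10 and P5 and cannot be told apart.

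Introduced factors can return somatic cells to a state like that of the early embryo, and cells so obtained are called induced pluripotent stem cells. In mouse, pluripotent cells can be held in a naive state that resembles the epiblast before implantation or in a primed state that resembles it afterwards. ESRRB, PRDM14, TBX3 and TCL1A are used as naive-associated genes, while telomerase is active in pluripotent cells and repressed in most somatic cells. ZSCAN10, DPPA5, GDF3 and FGF4 are known from mouse or human embryonic stem cells and are lost when these cells differentiate.

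The values are FPKM (fragment counts divided by gene length and by the library's mapped fragments), so levels can be compared between genes. The authors deposited 1 value per gene and group. No difference below therefore has a replicate check, an error or a p-value. The summed FPKM was 826083 in P10, 628992 in P5 and 821130 in PEF, and the mitochondrial genome took 31.1% of it in P10, 19.1% in P5 and 15.7% in PEF. All 10 genes lay at a locus of their own, with 0 overlapping IDs, on 8 chromosomes of the susScr3 build. Positions are printed as deposited, and the sources do not say if the starts are 0-based or 1-based.

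Nearly all of these genes were highest in P5, but most stayed low against the IDs that reached an FPKM of 1 in some group. P5 held the highest value for 9 of the 10 genes, all but TBX3, and P5 exceeded P10 for all 10. Among the 13998 IDs that reached an FPKM of 1 in some group, P5 was the highest group for 33.7% and exceeded P10 for 53.1%. Since the 10 genes were chosen with earlier results of these data known, these counts describe the set and are no test. The 10 genes summed to an FPKM of 25.3 in P10, 42.7 in P5 and 15.9 in PEF. TERF1 alone made 71.2% of the sum in P10, 57.3% in P5 and 64.0% in PEF. Their median level was 0.123 in P10, 1.36 in P5 and 0.00708 in PEF. Medians over the 13998 IDs were 7.78 in P10, 7.92 in P5 and 8.11 in PEF. The 2 sets are unlike, since the filter on FPKM leaves DPPA5, GDF3 and FGF4 out of the 13998. The members inside the 13998 stood above 10.2% (TCL1A) to 77.8% (TERF1) of these IDs in P5, with ZSCAN10 next to TERF1 at 47.7%. Without the filter, the 10 genes stood above 42.1% (FGF4) to 87.7% (TERF1) of all IDs in P5. The number of genes at an FPKM of 1 or more was 4 in P10, 7 in P5 and 2 in PEF. DPPA5, GDF3 and FGF4 did not reach 1 in any group.

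**Figure D1:**
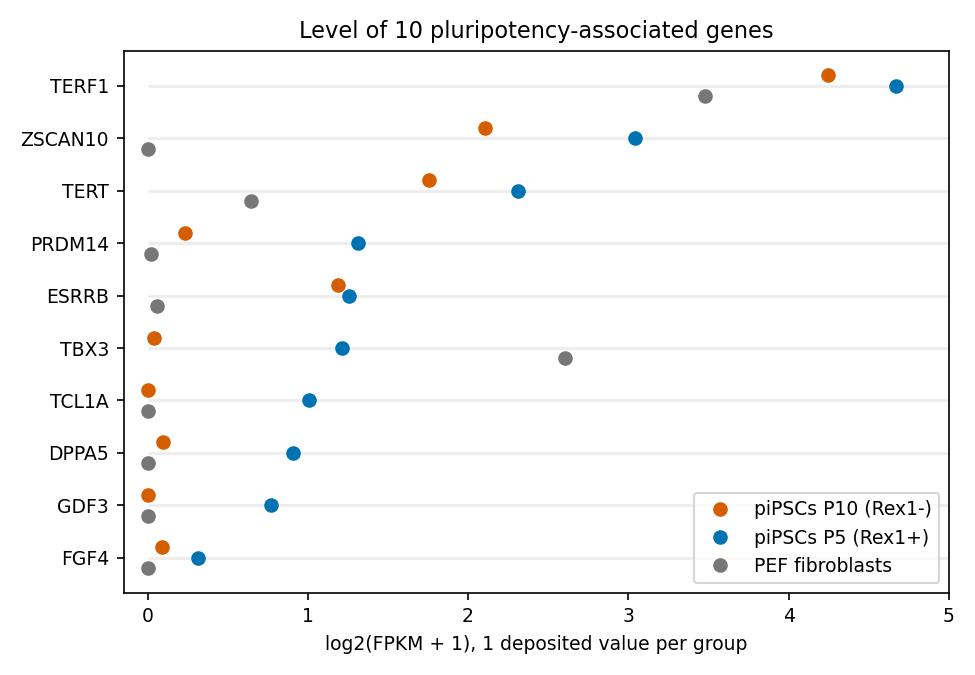
Level of each gene as log2(FPKM + 1), with 1 point per group and 1 deposited value behind each point; genes run down the page by their level in P5. The P5 point lies to the right of the P10 point for all 10 genes, and TBX3 is the gene whose PEF point lies to the right of both piPSC points.

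The mark for counting a gene as higher or lower was a difference of 1 in log2(FPKM + 1), which is 2-fold in FPKM + 1. To pass it, a gene must reach an FPKM of 1 in the group where it is higher. In P10 against PEF, 3 genes were higher (TERT, ZSCAN10 and ESRRB) and 1 was lower (TBX3), against 19.1% higher and 19.3% lower among all 13998 IDs. In P5 against PEF, 6 genes were higher (TERT, TERF1, ZSCAN10, ESRRB, PRDM14 and TCL1A) and TBX3 was lower, against 21.4% higher and 19.6% lower among all. In P10 against P5, 0 genes were higher and 3 were lower (PRDM14, TCL1A and TBX3), against 7.57% higher and 8.48% lower among all. Of the 6 genes higher in P5, 2 were listed at 0 in PEF. PRDM14 and TCL1A entered the 13998 only through their P5 value. The median difference of the 10 genes was 0.16 for P10 minus PEF, 1.10 for P5 minus PEF and -0.79 for P10 minus P5. The corresponding medians over the 13998 IDs were 0.06, 0.09 and -0.05. DPPA5, GDF3 and FGF4 are not among these IDs, and over the 7 other genes the medians were 0.77, 1.20 and -0.94. The comparisons share group values, so they are not independent of each other.

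These counts depend on the level of the genes and on the scale. With a pseudocount of 5 in place of 1, TBX3 alone was counted in P10 against PEF, ZSCAN10 alone in P5 against PEF, and 0 genes in P10 against P5. With a pseudocount of 0.1 PRDM14 was also counted in P10 against PEF, with a difference of 1.27. The combination of that pseudocount with no filter on low FPKM was chosen after seeing the data. It counted all 10 genes in P5 against PEF and 7 in P10 against P5. Among all 25322 IDs it counted 33.6% in P5 against PEF and 18.9% in P10 against P5. With columns scaled to the same sum outside the mitochondrial genome, the share of higher among counted IDs was 61.2% in P10 against PEF (49.7% as deposited), 68.9% in P5 against PEF (52.1%) and 35.4% in P10 against P5 (47.2%).

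**Figure D2:**
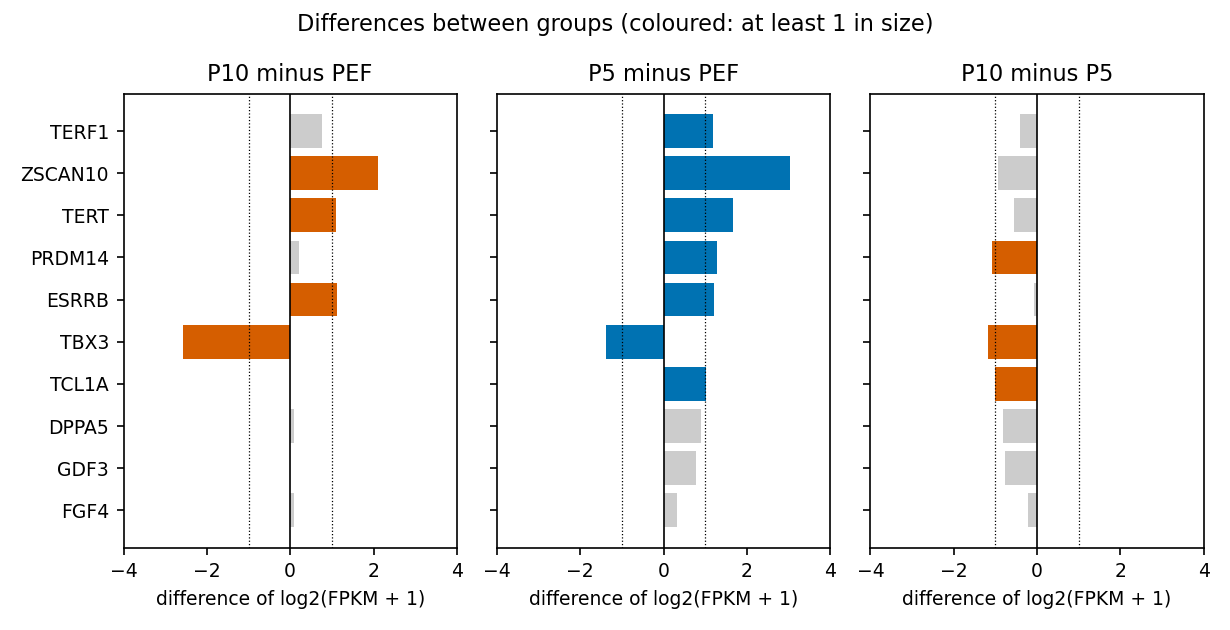
Difference of log2(FPKM + 1) for each gene in P10 minus PEF, P5 minus PEF and P10 minus P5; coloured bars reach a size of at least 1 (dotted lines) and grey bars do not. Only TBX3 points to the lower side against PEF, and all 10 bars of P10 minus P5 point to the lower side.

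The first role is telomere maintenance. TERT, the catalytic subunit of telomerase (ENSSSCG00000017118, chromosome 16, 85917095 to 85932895), had an FPKM of 2.38 in P10, 3.96 in P5 and 0.567 in PEF. It was thus above the fibroblast level in both piPSC groups, by a difference of 1.11 for P10 and 1.66 for P5, and the P5 value was 6.98 times the PEF value as FPKM. The difference between P10 and P5 was -0.55, under the mark. TERF1, the shelterin subunit TRF1 that binds double-stranded telomere repeats (ENSSSCG00000006184, chromosome 4, 68342513 to 68375882), had an FPKM of 18.0 in P10, 24.4 in P5 and 10.2 in PEF. TERF1 was the highest of the 10 genes in every group and stood above 87.7% of all IDs in P5. It differed from PEF by 0.77 in P10, a ratio of 1.77 as FPKM, and by 1.19 in P5, a ratio of 2.40. The P5 difference was 0.96 with a pseudocount of 5.

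Other telomere genes went in both directions. Of 24 listed shelterin, telomerase and CST genes and their partners, 19 had a row and 18 were compared. In P10 against PEF 2 were higher and 2 lower (median difference 0.14). In P5 against PEF 3 were higher and 1 was lower (median 0.17), and in P10 against P5 0 were higher and 1 was lower (median -0.02). DKC1, the dyskerin pseudouridine synthase of the telomerase particle, had an FPKM of 64.5 in P10, 132 in P5 and 26.6 in PEF, at a locus shared by 2 IDs. Its order of groups was that of TERT and TERF1. CTC1, a subunit of the CST complex that works with telomere replication, was at 6.73 in P10, 7.74 in P5 and 1.47 in PEF. ACD, the shelterin protein TPP1 that recruits telomerase, was at 2.93 in P10, 5.44 in P5 and 1.26 in PEF, also at a locus of 2 IDs. TEP1, a telomerase-associated protein, was lower in both piPSC groups, at 2.56 in P10, 1.09 in P5 and 6.49 in PEF. TEN1 of CST was lower in P10, at 1.61 in P10, 3.43 in P5 and 5.93 in PEF. TERF2, the shelterin paralogue of TERF1, was at 14.7 in P10, 19.1 in P5 and 13.03 in PEF, with differences under 1 throughout. GAR1, a core protein of the same particle as DKC1, was listed at 0 in all 3 groups and is named after its values were seen. GAR1 acts in a process that every cell uses, so an exact 0 in this table can be a failed estimate.

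ZSCAN10 stood apart among the transcription factors. ZSCAN10, a SCAN-domain zinc finger factor known in mouse embryonic stem cells as Zfp206 (ENSSSCG00000029641, chromosome 3, 40581661 to 40587506), had an FPKM of 3.30 in P10, 7.24 in P5 and was listed at 0 in PEF. Both piPSC groups were above the mark against PEF, with differences of 2.10 for P10 and 3.04 for P5. The P5 difference exceeded those of 97.8% of the 13998 IDs. An FPKM of 0 in PEF with at least 5 in P5 was found for 93 IDs. P10 minus P5 was -0.94, just short of the mark, and the P10 level was 45.5% of the P5 level. That difference passed the mark with a pseudocount of 0.1.

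ESRRB was low but nearly equal in both piPSC groups. ESRRB, an orphan nuclear receptor that supports self-renewal of mouse naive cells (ENSSSCG00000002388, chromosome 7, 105628139 to 105743716), had an FPKM of 1.28 in P10, 1.39 in P5 and 0.0417 in PEF. The differences were 1.13 for P10 minus PEF and 1.20 for P5 minus PEF. The P10 minus P5 difference was -0.07, the smallest in size of the 10 genes. PRDM14, a PR-domain regulator of mouse naive cells and germ cell precursors (ENSSSCG00000006195, chromosome 4, 70941058 to 70962233), reached a similar level in P5 but not in P10. Its FPKM was 0.176 in P10, 1.48 in P5 and 0.0142 in PEF. PRDM14 differed by 0.21 in P10 minus PEF, 1.29 in P5 minus PEF and -1.08 in P10 minus P5. In P10 it was at 11.8% of its P5 level, where ESRRB was at 91.6%.

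Of 17 listed genes related to ESRRB, PRDM14, TCL1A and TBX3, 15 had a row and 13 were compared. In P10 against PEF 3 were higher and 1 was lower (median difference 0.08). In P5 against PEF 2 were higher and 4 lower (median 0.42), and in P10 against P5 1 was higher and 0 were lower (median -0.08). The lower gene in P10 against PEF was TBX2, the paralogue of TBX3, and without it there were 3 higher and 0 lower in P10 against PEF and 2 higher and 3 lower in P5 against PEF. CBFA2T2, a corepressor that binds PRDM14 in mouse, was at 8.98 in P10, 5.57 in P5 and 3.55 in PEF. EZH2, the Polycomb methyltransferase, was at 51.4 in P10, 55.9 in P5 and 11.0 in PEF. NR0B1, an ESRRB-bound repressor of mouse naive cells named here after its values were seen, was at 0.0202 in P10, 0.642 in P5 and listed at 0 in PEF.

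TBX3 ran against the other genes. TBX3, a T-box repressor used in mouse naive cells and also expressed in limb and other mesenchyme (ENSSSCG00000009865, chromosome 14, 40012556 to 40026334), had an FPKM of 0.0278 in P10, 1.32 in P5 and 5.09 in PEF. It was highest in the fibroblasts and lowest in P10. The differences were -2.57 for P10 minus PEF, -1.39 for P5 minus PEF and -1.17 for P10 minus P5. The P5 level was 25.9% of the PEF level, and the P10 level 2.10% of the P5 level. Its paralogue TBX2 was at 0.210 in P10, 0.530 in P5 and 23.3 in PEF, with differences of -4.33 and -3.99 from PEF.

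TCL1A and DPPA5 were seen mainly in P5. TCL1A, a co-activator of the AKT kinases (ENSSSCG00000002498, chromosome 7, 124149956 to 124154286), was listed at 0 in P10, had an FPKM of 1.01 in P5 and was listed at 0 in PEF. Its difference of 1.01 in P5 minus PEF and of -1.01 in P10 minus P5 lay at the mark. With trimmed-mean scaling it was 0.96 in P5 minus PEF and -0.96 in P10 minus P5. DPPA5, a KH-domain RNA-binding protein of mouse and human pluripotent cells (ENSSSCG00000004283, chromosome 1, 59322089 to 59323218), had an FPKM of 0.0696 in P10, 0.877 in P5 and was listed at 0 in PEF. DPPA5 differed by 0.91 in P5 minus PEF and by -0.81 in P10 minus P5 and was not counted. AKT2, a kinase of the family that TCL1A binds, named after its values were seen, was at 33.4 in P10, 35.3 in P5 and 41.1 in PEF, with differences under 1 in size.

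Both secreted ligands were lower still. GDF3, a TGF-beta family ligand that signals with NODAL co-receptors (ENSSSCG00000000669, chromosome 5, 65666118 to 65671845), was listed at 0 in P10, had an FPKM of 0.708 in P5 and was listed at 0 in PEF. FGF4, which drives ERK signalling in the mouse inner cell mass (ENSSSCG00000012870, chromosome 2, 2004483 to 2006245), had an FPKM of 0.0639 in P10, 0.244 in P5 and was listed at 0 in PEF. FGF4 was the lowest of the 10 genes in P5. The differences from PEF in P5 were 0.77 for GDF3 and 0.32 for FGF4, and neither gene was counted in any comparison. With a pseudocount of 0.1 and no filter the differences were 3.01 for GDF3 and 1.78 for FGF4 in P5 minus PEF, and -3.01 for GDF3 and -1.07 for FGF4 in P10 minus P5.

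Levels of FGF receptors per length differed widely. FGFR1 was at 133 in P10, 105 in P5 and 47.9 in PEF, and FGFR3 was at 38.3 in P10, 19.2 in P5 and 1.87 in PEF. FGFR4 was at 0.688 in P10, 4.98 in P5 and 0.366 in PEF, so its high group was P5 alone. Of 29 FGF and ERK pathway genes listed, 22 had a row and 21 were compared. There were 4 higher and 5 lower in P10 against PEF, 4 higher and 2 lower in P5 against PEF, and 0 higher and 5 lower in P10 against P5. In P10 against P5, 7.57% of the 13998 IDs were higher and 8.48% lower. The medians were -0.14, -0.25 and -0.44. The lower genes in P10 against P5 included the ETS factors ETV4, ETV5 and ETV1, which are known targets of FGF and ERK signalling. ETV4 was at 0.696 in P10, 9.05 in P5 and 25.8 in PEF. ETV5 was at 1.92 in P10, 8.33 in P5 and 4.79 in PEF. ETV1 was at 1.69 in P10, 6.96 in P5 and 11.1 in PEF. Other genes of the list rose from P5 to P10 without reaching the mark, among them EGR1 and FOS. EGR1 was at 28.1 in P10, 15.8 in P5 and 30.1 in PEF, and FOS was at 7.41 in P10, 6.27 in P5 and 8.25 in PEF. The activity of the pathway was not tested.

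On the side of GDF3, 13 of 26 listed NODAL, activin and BMP pathway genes had a row and all 13 were compared. The symbols not matched included NODAL, GDF1, TDGF1, CFC1, LEFTY1, LEFTY2 and CER1, so the counts do not cover them. In P10 against PEF 3 were higher and 3 lower, in P5 against PEF 4 were higher and 4 lower, and in P10 against P5 0 were higher and 2 lower. The medians were -0.24, -0.23 and 0.06. FOXH1, a SMAD2 partner in NODAL signalling, was at 3.01 in P10, 15.1 in P5 and 0.0360 in PEF. ACVR1C, the type I receptor ALK7, was at 0.0221 in P10, 1.70 in P5 and 0.204 in PEF. Both had the group order P5 highest, as GDF3 did. ACVR2B, a type II receptor, was at 19.8 in P10, 18.8 in P5 and 1.26 in PEF, without such a step between P10 and P5.

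The change from P5 to P10 was set beside that of other genes. Among the 2990 IDs counted as higher in P5 than in PEF, the median P10 level was 70.8% of the P5 level, with quartiles of 46.0% and 110%. These IDs were picked by the same P5 value that forms the ratio, so the median is a description. TERF1 was at 73.6%, TERT at 60.1% and ESRRB at 91.6%, inside these quartiles. ZSCAN10 at 45.5% lay just under the lower one. PRDM14 lay lower, with 6.89% of the 2990 IDs below it. TCL1A was listed at 0 in P10. DPPA5 was at 7.94% and FGF4 at 26.2%, both from a P5 level under 1.

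**Figure D3:**
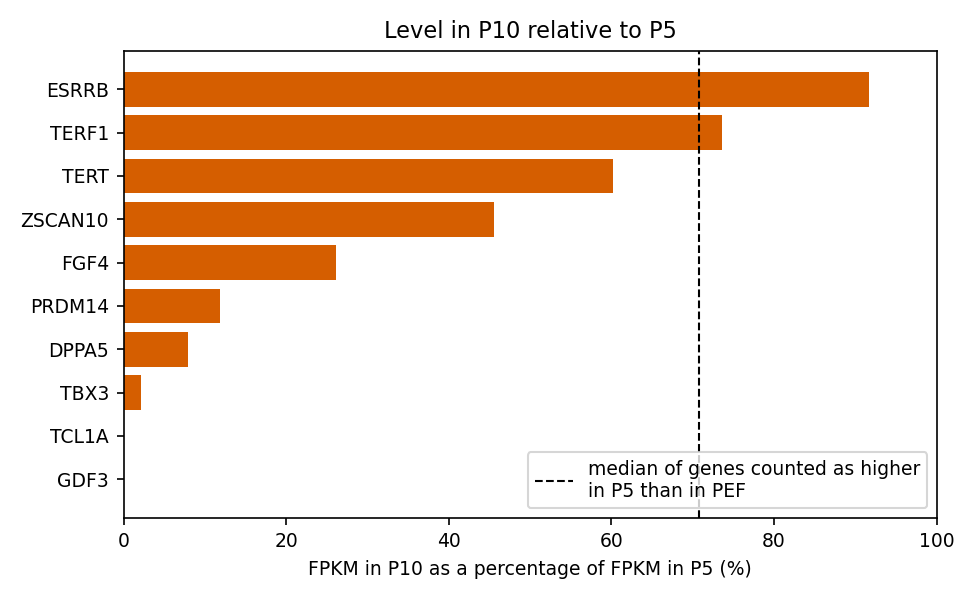
FPKM in P10 as a percentage of FPKM in P5 for each gene; the dashed line is the median of the 2990 IDs counted as higher in P5 than in PEF. ESRRB (91.6%) and TERF1 (73.6%) lie to the right of the line, and TCL1A and GDF3 are listed at 0 in P10.

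Other pluripotency genes divided in P10 against P5. Of 24 further genes listed, 11 had a row and 10 were compared. The symbols not matched included POU5F1, SOX2, NANOG and ZFP42, the gene of Rex1. The Rex1 state of the groups is therefore taken from the labels. There were 6 higher and 1 lower in P10 against PEF, 6 higher and 2 lower in P5 against PEF, and 2 higher and 2 lower in P10 against P5, with medians of 2.25, 2.60 and 0.30. LIN28A, which binds RNA and blocks let-7 maturation, was at 204 in P10, 299 in P5 and 0.325 in PEF. Its piPSC values were above those of each of the 10 genes. It is not known from the sources whether introduced copies add to them. PHC1, a Polycomb subunit, was at 13.2 in P10, 33.8 in P5 and 6.21 in PEF. DNMT3B, which places new DNA methylation, was at 24.4 in P10, 159 in P5 and 1.57 in PEF. SALL1, a zinc finger factor of the SALL family, was among the higher ones in P10 against P5, at 46.2 in P10, 16.8 in P5 and 1.32 in PEF.

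Of 20 further naive-associated genes, 13 had a row and 7 were compared. There were 2 higher and 3 lower in P10 against PEF, 3 higher and 2 lower in P5 against PEF, and 1 higher and 2 lower in P10 against P5, with medians of -0.80, 0.30 and -0.0050. KLF4 was at 299 in P10, 116 in P5 and 11.6 in PEF, and it is not known from the sources whether introduced copies add to it. TFAP2C, a naive and trophectoderm factor, was at 4.70 in P10, 4.72 in P5 and 0.0760 in PEF. PECAM1, an adhesion molecule of mouse naive and of endothelial cells, was at 1.17 in P10, 12.8 in P5 and 2.78 in PEF. LIFR, the LIF receptor, was at 2.50 in P10, 7.83 in P5 and 6.15 in PEF. The 6 remaining naive-associated genes with a row stayed under 1 in every group, and 5 of them were highest in P5. Of all IDs with a highest FPKM from 0.2 to under 1, 34.1% were highest in P5. Among the 5, SUSD2 was nearly level at 0.843 in P5 and 0.806 in PEF. KLF17 and MAEL reached only 0.122 and 0.0906 in P5. FBXO15, also 1 of the 5 and named after its values were seen, was at 0.0434 in P10, 0.670 in P5 and 0.0563 in PEF.

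Of 19 primed and epiblast genes listed, 13 had a row and 12 were compared. The remaining gene with a row, CDH2, was listed at 0 in all 3 groups and is named after its values were seen. In P10 against PEF 9 were higher and 2 lower, in P5 against PEF 8 were higher and 2 lower, and in P10 against P5 3 were higher and 1 lower, with medians of 2.46, 2.25 and 0.37. The higher ones in P10 against P5 included ZIC2, a zinc finger factor of neural development, and the lower one was DNMT3B. ZIC2 was at 109 in P10, 31.7 in P5 and 4.81 in PEF. OTX2, a homeobox factor of epiblast and forebrain, was at 63.0 in P10, 49.7 in P5 and 0.312 in PEF. The level of OTX2 in P5 was thus above that of each of the 10 genes.

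**Figure D4:**
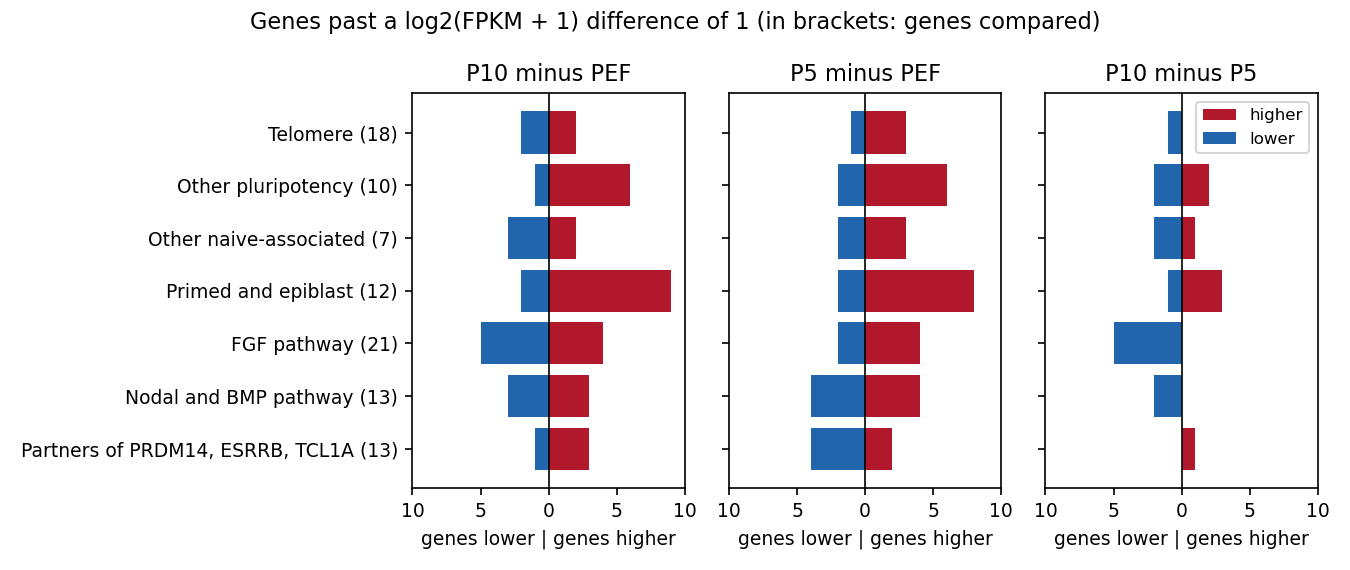
Number of genes lower (left) and higher (right) by at least 1 on the log2(FPKM + 1) scale in 7 lists of related genes, with the number compared in brackets; lists share some genes. In P10 minus P5 the FGF list has 5 lower and 0 higher genes, and the primed and epiblast list 3 higher and 1 lower.

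Marker levels of other cell types moved between the same groups, and their part in the values of the 10 genes was not tested. In bulk RNA, fewer cells of a type and less RNA per cell cannot be told apart. Of 12 pluripotent cell markers, 4 were matched, and their summed FPKM was 243 in P10, 548 in P5 and 2.22 in PEF. LIN28A alone was at 204 in P10 and 299 in P5. In P10 against P5 the other 3, DNMT3B, EPCAM and CDH1, were lower and 0 of the 4 were higher. The 12 of 15 neural markers with a row summed to 1448 in P10, 577 in P5 and 132 in PEF, with 8 higher and 0 lower in P10 against P5. The 11 fibroblast markers with a row were all lower in both piPSC groups than in PEF, with sums of 1020 in P10, 736 in P5 and 9407 in PEF. VIM made most of the piPSC sums, and without it they were 51.0 in P10, 147 in P5 and 4004 in PEF, with 4 of the 10 other markers lower and 0 higher in P10 against P5. COL3A1 was at 3.11 in P10 and 87.9 in P5, against 1016 in PEF. The 9 trophectoderm markers with a row summed to 1366 in P10, 1410 in P5 and 33.4 in PEF, and KRT8 and KRT18 made most of the piPSC sums. The 7 endoderm markers with a row summed to 36.7 in P10, 56.7 in P5 and 113 in PEF, and without PDGFRA, which is also a fibroblast marker, to 31.4 in P10, 53.0 in P5 and 6.06 in PEF. The 10 germ cell markers with a row summed to 5.25 in P10, 18.1 in P5 and 1.79 in PEF, and without KIT to 3.02 in P10, 2.33 in P5 and 0.900 in PEF. KIT was at 2.22 in P10, 15.8 in P5 and 0.888 in PEF. PIWIL2, the other compared germ cell marker, was highest in P10, at 2.15 in P10, 0.177 in P5 and 0.115 in PEF.

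The smooth muscle markers summed to 160 in P10, 130 in P5 and 12694 in PEF. Endothelial markers summed to 8.89 in P10, 23.2 in P5 and 19.5 in PEF, and immune markers to 4.44 in P10, 2.15 in P5 and 4.24 in PEF. Among markers that stayed under an FPKM of 1, those highest in P5 were 2 of 2 for trophectoderm, 3 of 4 for endoderm, 4 of 8 for germ cells and 2 of 3 for immune cells. Some of these are named here after their values were seen. CDX2 of trophectoderm was listed at 0 in P10, at 0.526 in P5 and at 0 in PEF. GATA4 of endoderm was listed at 0 in P10, at 0.336 in P5 and at 0.0205 in PEF. DDX4 of germ cells was at 0.190 in P10, 0.817 in P5 and listed at 0 in PEF. PTPRC, the pan-leukocyte CD45, was listed at 0 in P10, at 0.356 in P5 and at 0 in PEF, whereas CD68 of macrophages was at 3.34 in P10, 1.09 in P5 and 0.573 in PEF.

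The low genes of the set were also read against all genes of similar level. Of the 2275 IDs whose highest FPKM lay from 0.2 to under 1, as for DPPA5, GDF3 and FGF4, 34.1% were highest in P5 and 43.2% in P10. An FPKM of 0 in both P10 and PEF, as for GDF3, was found for 4.40% of them. Of the 1236 IDs with a highest FPKM from 1 to under 2, as for ESRRB, PRDM14 and TCL1A, 35.7% were highest in P5. Of these, 10 IDs or 0.809% were listed at 0 in both P10 and PEF, as TCL1A was.

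The genes nearest in level to the 3 members with an FPKM of 5 or more were found by Euclidean distance of log2(FPKM + 1) over the 3 groups, among 8943 other genes with a symbol. TAMM41 lay nearest to TERF1, at a distance of 0.0186, with an FPKM of 18.1 in P10, 24.3 in P5 and 10.0 in PEF. HES3 lay nearest to ZSCAN10, at 0.257, with 2.75 in P10, 6.63 in P5 and 0.0861 in PEF. PDE7B lay nearest to TBX3, at 0.168, with 0.0201 in P10, 1.24 in P5 and 5.80 in PEF. With 3 values per gene such closeness is a description of level alone.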

How the data were processed

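Reads were handled by the authors with Bowtie2 2.0.6 and TopHat2 2.0.9 on susScr3, per the submitters' processing notes, from RNeasy Mini RNA and NEBNext Ultra libraries, per the labels' protocols. Per the file headers, the deposited values are FPKM, with 1 column per group of 2 libraries. Not given in the sources used here are the program behind the FPKM, the annotation release, strand use and how libraries were combined.

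The columns were matched to groups by name. Symbols came from a reference table that matched 11804 of 25322 IDs (46.6%). Differences are of log2(FPKM + 1), which understates the differences of low genes. IDs that reached an FPKM of 1 in some group were compared. limma was planned for values per library and could not be run on 1 column per group, so no test is given. The members, gene lists and tests were chosen with earlier results of these data known. Named genes are the 10 members, set partners, up to 4 counted genes per list and comparison with the largest differences, and the nearest genes by level. Some genes meeting the rule are not reported here.

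Depth is unknown. Among IDs under an FPKM of 0.15 in both columns, the commonest ratio of FPKM gave a hint of relative depth, 1.96 for P10 over P5; 41 of 774 IDs shared it within 0.02 (log2). Alternatives were pseudocounts of 0.1 and 5, no filter, median and trimmed-mean scaling and a difference of at least 2, with 2 more added after seeing the data. Python 3.11.15, pandas 2.3.3 and numpy 2.4.6 were used.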

Additional observations from a re-analysis of the deposited data

How the results depend on the processing

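The 10 genes had 14 counted differences over the 3 comparisons, and 0 of 42 recalculations under the 3 scalings changed their sign. No scaling shifted the median difference by more than 0.37 in size, while each counted difference was at least 1. The 0 was therefore fixed in advance and is no check. The other alternatives cannot change a sign either. In the order P10 against PEF, P5 against PEF and P10 against P5, the members counted were 4, 7 and 3, and the IDs counted 5383, 5734 and 2247. With a pseudocount of 5 these became 1, 1 and 0 members and 3011, 3242 and 878 IDs. With a difference of at least 2 they became 2, 1 and 0 members and 2031, 2042 and 374 IDs. With a pseudocount of 0.1, 3418 IDs were counted in P10 against P5. A pseudocount of 0.1 without the filter, added after seeing the data, gave 7 members in P10 against P5. Of all 25322 IDs it counted 8238 in P10 against PEF and 4776 in P10 against P5. Scaling to the sum outside the mitochondrial genome, also added later, shifted the median difference by 0.23, 0.37 and -0.14. It added TERF1, DPPA5 and ZSCAN10 to the members counted, 1 per comparison, and relative to that shift their differences were 0.80, 0.64 and -0.95. Relative to the shift, 5 counted differences also lay under the mark, at 0.75 to 0.997 in size. They were TERT in P10 minus PEF, ESRRB in both differences from PEF, and TCL1A in P5 minus PEF and P10 minus P5. All 5 passed the mark both as deposited and after the scaling. The shift is a median over all compared IDs, while the pseudocount of 1 dampens scaling for low genes. TCL1A in P5 minus PEF rose only from 1.01 to 1.12, yet 0.37 was taken off. These 5 falls therefore follow from the subtraction, and the 0.64 for DPPA5 is lowered in the same way. Why the counts moved follows from the scale or the stricter mark for the pseudocounts and the mark. For the mitochondrial scaling it follows from the factor that multiplied each column. Why the column sums differ was not tested. Leaving out a replicate was not run, since the table holds 1 column per group. No paired analysis was possible because the columns carry no replicate numbers. The unknown depth limits what a listed 0 means for TCL1A, GDF3, DPPA5, FGF4 and ZSCAN10. As for GAR1, a listed 0 of these genes can also be a failed estimate.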
